A study of Mus musculus with 32 samples.

Results

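The genes described here repair DNA double-strand breaks or signal their presence. They are the 39 genes of a list of break repair symbols, found by symbol among the 55103 rows of the deposited count table, and all 39 passed the filter on low counts that left 20474 genes for testing. By role, 11 sense breaks or pass on the signal, 15 act in homologous recombination, 3 belong to the Fanconi anaemia pathway, 7 to classical end joining and 3 to alternative end joining, with Polq, Parp1 and Xrcc1.

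RNA was sequenced from 32 pieces of bulk tumour of KPC36, a line from the KPC mouse model of pancreatic cancer. The libraries formed 4 groups of 8: tumours treated with carbon ions, a particle radiation, their untreated controls, tumours treated with photons, the usual radiotherapy, and untreated controls of the photon arm. The labels give no dose, genotype, sex or age of the animals, and do not say that the 8 libraries of a group came from separate animals, so p-values measure the spread between these libraries. Tumours were taken 4 and 7 days after treatment, but the labels do not give the day of each library.

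A double-strand break is detected by the Mre11, Rad50 and Nbn complex, which activates the kinase Atm, while Atr, helped by Topbp1, responds to single-stranded DNA at resected ends and stalled replication forks. Homologous recombination copies the sister chromatid and is therefore used in S and G2 phase, and many of its genes are transcribed most in cells that replicate DNA. Classical end joining, through the Ku proteins Xrcc5 and Xrcc6, the kinase Prkdc and the ligase Lig4, needs no sister chromatid and works in all phases of the cycle.

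Totals ran from 13891863 to 71645903 estimated counts per library. A cycling score, the mean log2 CPM (counts scaled to a common library total) of 20 mitosis and 20 replication genes, set 2 libraries apart at its low end, photon-arm control 2 at 4.23 and photon-irradiated library 1 at 4.12, where the group means lay between 4.81 and 5.25. The 8 epithelial markers, of the kind that carcinoma cells express, summed to between 2396 and 5369 CPM in all libraries, beside fibroblast, macrophage and other stromal transcripts, so that every value is a mixture, in which fewer cells of a type and less RNA per cell cannot be told apart. Titles starting with D occur in 7 carbon-arm libraries and in none of the photon arm, and the title numbers of photon controls and photon-irradiated libraries do not overlap, so that whatever these numbers stand for cannot be told apart from the photon treatment.

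The promoters show what part of this gene set has in common beyond its role. RefSeq promoter windows (GRCm38.p6, 250 bases before to 50 after the start) were matched for 31 of the 39 genes. They were searched on both strands for letters that E2F factors, which drive transcription at the entry into S phase, are known to bind: the pattern TTCCCGC, the pattern TTCGCGC, the pattern TTGCCGC or the pattern TTGGCGC. A match was found for 19 of the 31 genes, or 61.3%, against 17.6% of the 12887 tested genes in the table and 10.9% of all 27025 genes in it. By promoter, it was 60% of the members' 35, against 14.9% of the 16348 promoters of tested genes and 9.57% of all 32851 of that length. The stretches below hold the match in capitals with 10 bases on either side, 5′ to 3′ on the gene's strand. They are examples from each role among the genes with a match, chosen with their values known: the signalling gene Topbp1 and the Fanconi gene Fanci, then recombination genes, the alternative end-joining gene Polq, and last the classical end-joining genes Xrcc6 and Xrcc4.

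Topbp1, chr9:103305185-103305214, plus strand: gtccgctcggTTGGCGCGAAagtcggttcc

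Fanci, chr7:79392346-79392372, plus strand: gtggagtagaGCGGGAAttttggaagg

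Bard1, chr1:71103164-71103190, minus strand: gccgctcagtTTCCCGCtcaggaagtt

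Brca1, chr11:101551918-101551944, minus strand: ctagcgctagGCGCCAAgcggccggtt

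Brca2, chr5:150522443-150522469, plus strand: ttaggccacaGCGGGAAacagacacac

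Rad51ap1, chr6:126939559-126939585, minus strand: ctggttttcgGCGGGAAttgaaaccgc

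Polq, chr16:37011786-37011812, plus strand: gaagatggagGCGGGAAgatggaggcg

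Xrcc6, chr15:82016313-82016339, plus strand: gggggtggaaGCGGGAAatgcgagtgg

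Xrcc4, chr13:90089692-90089718, minus strand: cccgctgtgcTTCCCGCtcgctccagc

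Topbp1 holds a pair of overlapping matches, 1 on each strand, within 132 bases before its start. By role, the letters were found for 7 of 9 signalling genes, 7 of 11 recombination genes, 1 of 2 Fanconi genes and 4 of 9 end-joining genes. Rad54l, Palb2, Xrcc3, Trp53bp1, Parp1, Xrcc1 and Xrcc5 were among the 12 genes without them, and Xrcc2, Prkdc, Rbbp8, Fancd2, Rad50, Rad54b, Nbn and Exo1 were not in the promoter table. The letters were also found for 11 of 15 replication genes but for 3 of 17 mitosis genes. The mitosis genes held instead the CHR letters TTTGAA (12 of 17, against 4 of 31 break repair genes and 15.5% of tested genes). The CCAAT letters were found for 16 of 31 members and the NRF1 core GCATGCG for 4 of 31, against 42.4% and 6.29% of tested genes. A single copy of the p53 binding pattern was found for 1 of 31 members and for 8.6% of tested genes. A match is a description of letters and not evidence of binding.

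Levels differed widely between members. Per kilobase of exon, as a mean over the 32 libraries, the Ku subunit Xrcc5 was highest at 18.4 ± 2.84 CPM per kb (SD, n = 32), followed by Parp1, a sensor of DNA breaks, at 10.2 ± 1.58, the adaptor Mdc1 at 8.44 ± 1.26 and Topbp1 at 7.78 ± 1.57. The lowest were the recombinase paralogs Rad51c at 0.315 ± 0.112 and Rad51b at 0.953 ± 0.247, and the polymerase Polq at 0.961 ± 0.293 CPM per kb. The median count per library was 44.2 for Rad51c, 114 for Rad51b and 310 for Polq.

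The photon effect was measured as photon-irradiated tumours against photon-arm controls. Of the 39 genes, 4 fell and none rose at an adjusted p under 0.05 (edgeR quasi-likelihood test, Benjamini-Hochberg over all 20474 genes), where 2.1% of all tested genes fell, 1.71% rose and 3.81% did either. The genes that fell were Topbp1, Rad54l, Rad54b and Fanci. Below 0 were 32 of the 39 log2 fold changes, against 50.1% of all genes, and their median was -0.20, where that of all genes was -0.000605. At an unadjusted p under 0.05, 16 of 39 were lower and 0 higher, against 12.7% of all genes lower.

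**Figure D1:**
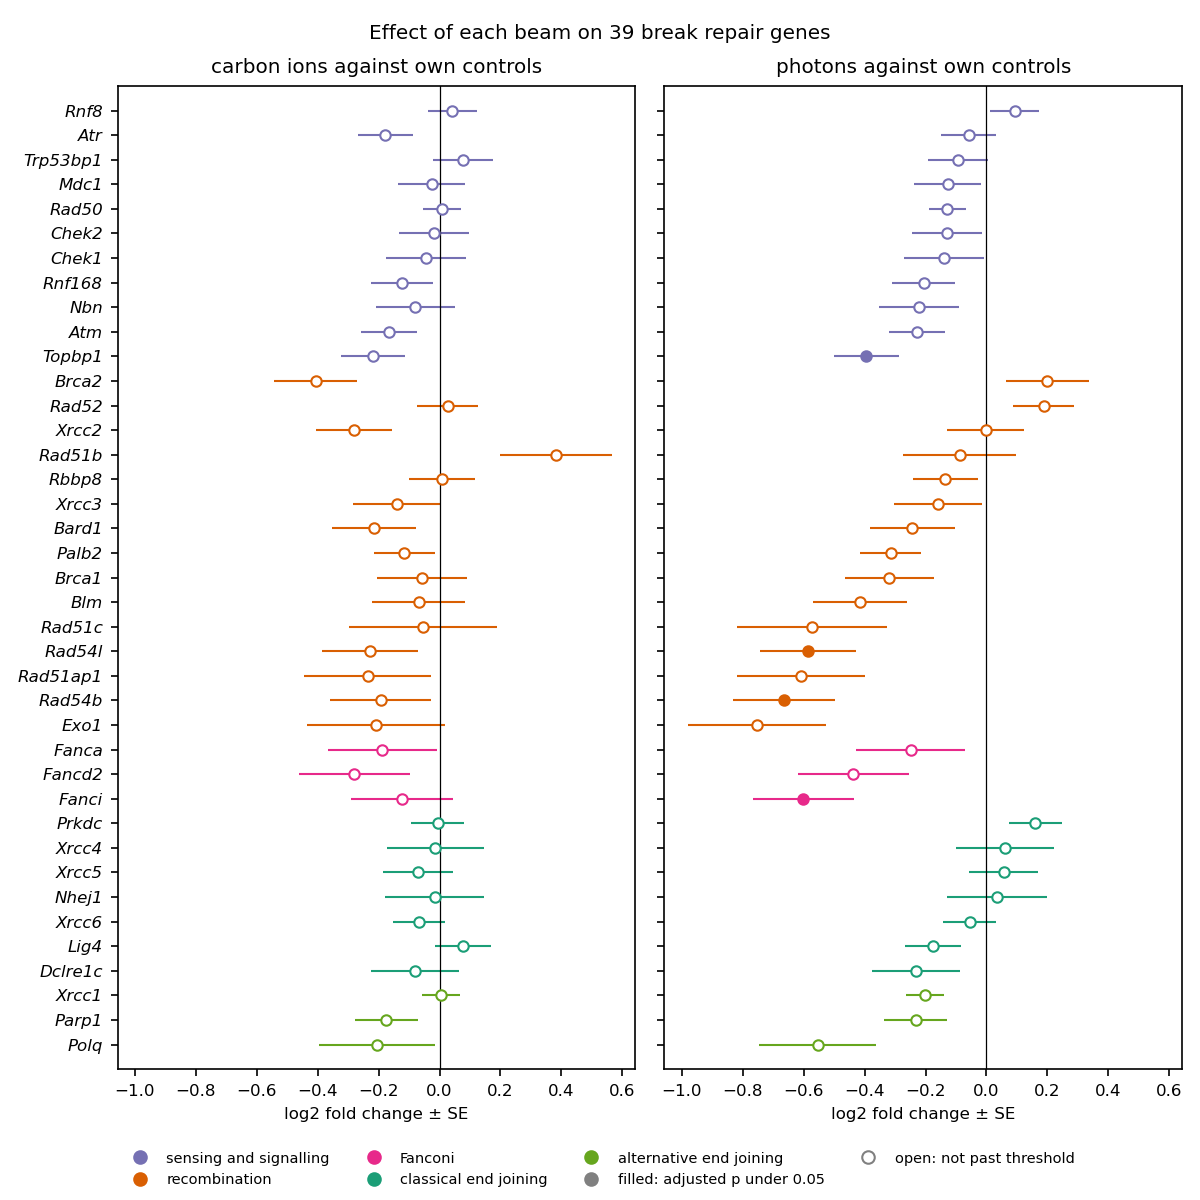
Log2 fold change with its standard error (horizontal axis) of each of the 39 genes (rows, grouped and coloured by role) after carbon ions (left) and photons (right), each against its own 8 controls with 8 irradiated libraries. Filled points had an adjusted p under 0.05; all 4 of them are in the photon panel and lie to the left of 0.

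Among the signalling genes, Topbp1 is the scaffold that activates Atr. Topbp1 measured 72.03, 107 and 137 CPM (lowest, median and highest of 8) in the photon controls and 63.5, 82.5 and 94.6 CPM after photons. All 8 irradiated libraries lay below the control median, although the groups overlap. The log2 fold change was -0.39 with a standard error of 0.11, a drop of 23.9% with an adjusted p of 0.0328 in the edgeR test. The other 10 signalling genes did not pass. Their changes ran from -0.23 for Atm to 0.09 for Rnf8, a ubiquitin ligase at break sites, and 9 of the 10 were below 0. Atm, the main kinase of the break response, measured 56.5, 65.6 and 79.7 CPM in the controls and 42.8, 58.8 and 68.6 CPM after photons, with a log2 fold change of -0.23 ± 0.09 (SE) and an edgeR adjusted p of 0.143. Chek1, the kinase downstream of Atr, measured 9.13, 12.1 and 16.6 CPM against 8.60, 11.6 and 14.1 CPM, and its change of -0.14 had a 95% interval that includes 0 and an edgeR adjusted p of 0.578. Rad50 measured 29.7, 33.7 and 37.4 CPM in the controls and 29.4, 30.9 and 32.7 CPM after photons, at an edgeR adjusted p of 0.221.

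Recombination genes had the widest range of photon effects. Rad54b and Rad54l are motor proteins that act on the recombinase filament and on chromatin during strand invasion. Rad54b measured 5.42, 6.27 and 11.1 CPM in the photon controls and 2.63, 4.46 and 6.05 CPM after photons, with all 8 irradiated libraries below the control median. The change was -0.66 ± 0.17 on the log2 scale, a drop of 36.9% (edgeR adjusted p = 0.0249). Rad54l measured 9.78, 12.8 and 18.7 CPM in the controls and 6.57, 8.80 and 13.6 CPM after photons, with 7 of 8 irradiated libraries below the control median. It fell by 0.59 ± 0.16 on the log2 scale, a drop of 33.4% (edgeR adjusted p = 0.0327). In both genes the upper irradiated libraries reach into the control range.

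The remaining 13 recombination genes did not pass the threshold. Exo1, a nuclease that resects break ends, had the lowest estimate of all 39 genes, -0.75 ± 0.23, and an edgeR adjusted p of 0.0542. Its values were 5.68, 11.7 and 21.3 CPM in the controls and 4.77, 6.67 and 11.8 CPM after photons, so the control group alone spanned nearly the whole range. Rad51ap1, an accessory protein of the recombinase, and Palb2, the bridge between Brca1 and Brca2, had changes of -0.61 ± 0.21 and -0.31 ± 0.10 with edgeR adjusted p values of 0.0855 and 0.0683. Brca1, which promotes resection, measured 17.1, 31.8 and 43.6 CPM in the controls and 16.2, 26.0 and 32.4 CPM after photons, a change of -0.32 ± 0.15 with an edgeR adjusted p of 0.202. Brca2, which loads the recombinase on DNA, and the annealing factor Rad52 were the 2 recombination genes above 0. Brca2 measured 15.7, 23.9 and 31.1 CPM in the controls and 17.8, 27.6 and 39.5 CPM after photons, a change of 0.20 with a 95% interval from -0.07 to 0.47. Rad52 changed by 0.19 ± 0.10, and neither passed (edgeR adjusted p = 0.411 and 0.278).

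The Fanconi genes, known for the repair of crosslinks between DNA strands, were all below 0. Fanci, which forms the clamp of this pathway with Fancd2, measured 6.28, 11.7 and 15.3 CPM in the photon controls and 5.10, 8.10 and 10.4 CPM after photons. All 8 irradiated libraries were below the control median, and the log2 fold change was -0.60 ± 0.17, a drop of 34.1% (edgeR adjusted p = 0.0379). Its partner Fancd2 measured 9.09, 17.02 and 22.8 CPM in the controls and 5.63, 12.1 and 18.1 CPM after photons. That change of -0.44 ± 0.18 did not pass (edgeR adjusted p = 0.153), and neither did that of Fanca, -0.25 ± 0.18.

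No end-joining gene passed after photons in this fit. In the classical route, 4 of 7 estimates were above 0 and their median was 0.03. Prkdc, the kinase that holds the ends with Ku, measured 44.2, 55.5 and 60.9 CPM in the controls and 43.2, 61.7 and 68.4 CPM after photons, a change of 0.16 with a 95% interval from -0.01 to 0.33 and an edgeR adjusted p of 0.281. Lig4, the ligase of the pathway, measured 13.8, 15.9 and 19.3 CPM against 12.6, 14.4 and 15.99 CPM, a change of -0.18 ± 0.09 with an edgeR adjusted p of 0.269. The control and irradiated ranges overlap in both. The Ku subunits Xrcc5 and Xrcc6 changed by 0.06 ± 0.11 and -0.06 ± 0.09, and the 95% interval for Xrcc5 ran from -0.17 to 0.28.

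The 3 genes of alternative end joining were all below 0. Polq, the polymerase that joins ends at short repeats, measured 5.49, 12.2 and 17.3 CPM in the controls and 5.60, 7.99 and 10.1 CPM after photons, with all 8 irradiated libraries below the control median. The change of -0.55 ± 0.19 did not pass (edgeR adjusted p = 0.0863). Xrcc1, a scaffold for end ligation that also serves single-strand break repair, measured 22.8, 25.3 and 29.1 CPM in the controls and 19.9, 22.7 and 23.9 CPM after photons. Its change of -0.20 ± 0.06 had an edgeR adjusted p of 0.0609. DESeq2 called it lower (adjusted p = 0.0216), and so did edgeR without photon-arm control 2 or 4, and Polq passed without control 2. Parp1 measured 49.1, 57.0 and 71.6 CPM against 42.8, 48.3 and 62.6 CPM, with a change of -0.23 ± 0.10 and an edgeR adjusted p of 0.182.

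The calls after photons depended on single libraries. Without photon-arm control 2, 10 members passed, and they included the 4 named above, where 4.79% of all genes fell in the same fit. None passed without photon-arm control 1, 5 or 8 or without irradiated library 1, where 0.65% to 0.961% of all genes fell. Rad54b alone passed without control 3 (0.51% of all genes fell) or irradiated library 5 (2.14%), 6 (1.13%) or 7 (0.768%). Without irradiated library 8, 2 members passed (1.22%). There were 6 members without control 4 (2.45%), 6 without control 6 (2.69%) and 3 without control 7 (1.56%). There were 4 without irradiated library 2 (1.45%), 3 without library 3 (1.02%) and 5 without library 4 (2.65%). Without both libraries of lowest cycling score, photon-arm control 2 and irradiated library 1, the 4 genes passed, and so did Exo1, where 2.22% of all genes fell. When each photon-arm library was dropped in turn, Rad54b passed in 12 of 16 fits, Topbp1 in 8, Rad54l in 7 and Fanci in 5, and each estimate stayed below 0. A fit of the 16 photon-arm libraries alone called no member, where 4.41% of all genes passed and 2.45% fell. The edgeR adjusted p for Rad54b was then 0.0502.

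**Figure D2:**
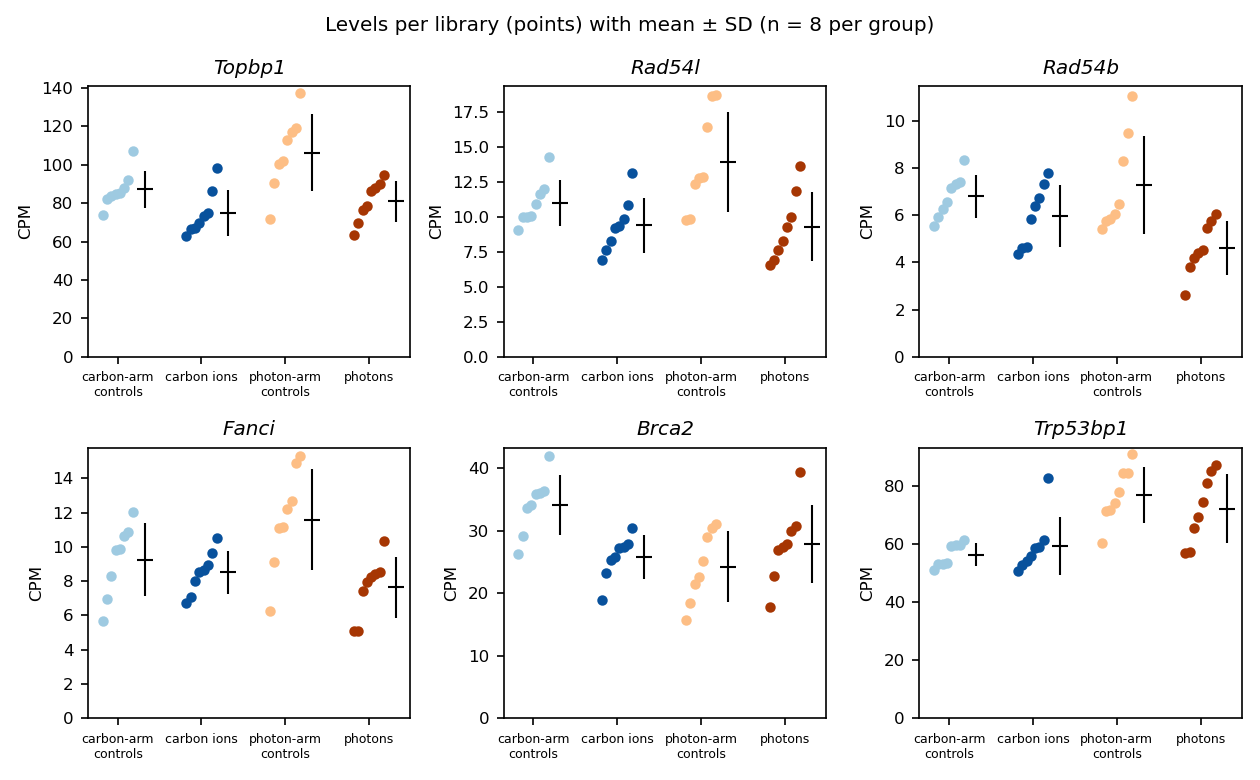
CPM per library (points, sorted within each of the 4 groups of 8) with the mean and standard deviation beside them, for the genes called after photons (Topbp1, Rad54l, Rad54b and Fanci) and for Brca2 and Trp53bp1. Photon libraries lie low against their own controls in the first 4 panels, while Brca2 is high in the carbon-arm controls and Trp53bp1 in both photon-arm groups.

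Some members share exons with neighbours, and how counting treated strand is not given in the sources used here, although the libraries were stranded. On the GENCODE vM21 annotation of this build, 35.8% of the exonic bases of Rad54b are shared with Fsbp on the same strand, 15.4% of Rad54l with Lrrc41 and 16% of Fanci with Polg on the opposite strand. The neighbours did not pass after photons: Fsbp changed by -0.11 ± 0.29, Lrrc41 by 0.09 ± 0.09 and Polg by -0.01 ± 0.09 on the log2 scale. Topbp1 (chr9:103305215-103350428, plus strand) shares no exon with another gene.

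Recombination and end joining were then set side by side as subsets. After photons the median log2 fold change was -0.31 over the 15 recombination genes, with 13 below 0, and -0.12 over the 10 end-joining genes, with 6 below 0. Per library, the mean log2 CPM of the recombination genes less that of the end-joining genes was -0.653 ± 0.197 (SD, n = 8) in the photon controls and -0.827 ± 0.201 after photons. The shift of -0.174 is smaller than the standard deviation within either group, and both groups overlap from -0.954 to -0.454. In the carbon arm the same quantity was -0.711 ± 0.0728 in the controls and -0.775 ± 0.139 after carbon ions, a shift of -0.064. By route, the mean log2 CPM of classical end joining was 3.96 ± 0.0802 in the controls and 3.94 ± 0.102 after photons (SD, n = 8), and that of the 3 alternative end-joining genes was 4.66 ± 0.262 and 4.36 ± 0.141. With classical end joining alone as the partner, the difference was -0.442 ± 0.255 in the controls and -0.702 ± 0.240 after photons, a shift of -0.260 that is close to these standard deviations, with both groups overlapping from -0.829 to -0.281. Under the other choices of genes and scaling the photon shift ran up to -0.131, its value with the members of lowest level left out. The carbon shift was -0.117 with the members of lowest level left out and -0.102 in M-titled libraries alone. No p is given for these subset means, because the genes were chosen with earlier results of these data in view.

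**Figure D3:**
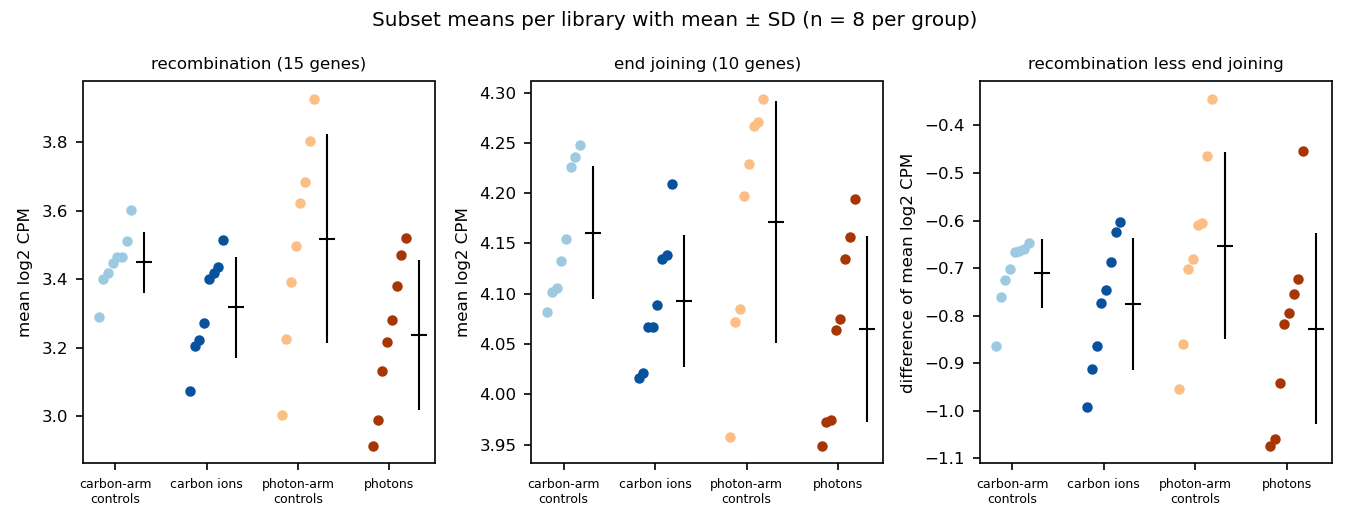
Mean log2 CPM per library (points) of the 15 recombination genes (left), the 10 end-joining genes (middle) and the difference of both (right) in the 4 groups of 8, with mean and standard deviation beside them. Vertical axes differ and do not start at 0; the difference is lowest on average after photons, -0.827, and the groups overlap.

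Within groups, Pearson's r with the cycling score was over 0.5 for 3 of 3 Fanconi, 9 of 15 recombination, 5 of 11 signalling and 2 of 10 end-joining genes, and the difference between these roles was not tested. Recombination genes ran from -0.50 for Rad52 to 0.92 for Bard1. After each library's values were centred on the group mean, Pearson's r with the score over the 32 libraries was 0.92 for Bard1, 0.89 for Fanci, 0.88 for Brca1 and 0.84 for Exo1 and Fancd2. Spearman's rho for Bard1, Fanci and Brca1 was 0.85, 0.84 and 0.81, with adjusted permutation p values of 3.9e-05 for r and 7.8e-05 for rho over the 39 genes. Those p values rest on the smallest p that 100000 permutations can give. Without the 2 libraries of lowest score, r was 0.85, 0.83 and 0.81. Brca2 (0.42), Rbbp8 (0.48), Chek1 (0.48) and Chek2 (0.46) then no longer had an r over 0.5, whereas Xrcc6 (0.52) did. The median r was 0.84 for the 3 Fanconi genes, 0.67 for recombination, 0.38 for signalling and 0.29 for end joining. An r over 0.5 was reached by 19 of 39 members, or 48.7%, against 9.78% of all genes outside the score.

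Topbp1, Rad54l and Rad54b had r values of 0.74, 0.76 and 0.40. For Rad54b, r was 0.75 in the photon controls and between -0.18 and 0.21 in the other groups. Polq and Parp1, both of alternative end joining, had r values of 0.69, while the classical genes Xrcc5 and Prkdc had 0.31. The r of Prkdc was -0.11 without the 2 lowest libraries, so that it rests on them. Trp53bp1, which shields ends from resection, and Rad52 went the other way, with r of -0.53 and -0.50 (adjusted permutation p = 0.00869 and 0.00768), and -0.49 and -0.48 without those 2 libraries. Within the photon controls, r was -0.73 for Trp53bp1 and -0.80 for Rad52, but in the carbon-arm controls Trp53bp1 had 0.13.

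The cycling genes themselves were lower after photons. All 20 mitosis and all 20 replication genes had estimates below 0, with medians of -0.58 and -0.33, and 5 and 2 of them passed. With the cycling score as a covariate, no member passed after photons, 24 of 39 estimates were below 0 and the median was -0.05, where 0.303% of all genes fell. Topbp1 was then at -0.18, Rad54l at -0.28, Rad54b at -0.47 and Fanci at -0.21, while Brca2 was at 0.44. Brca1 and Chek1 turned from below 0 to 0.05 and 0.07. The part of cycling in the photon values was not tested beyond this covariate.

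**Figure D4:**
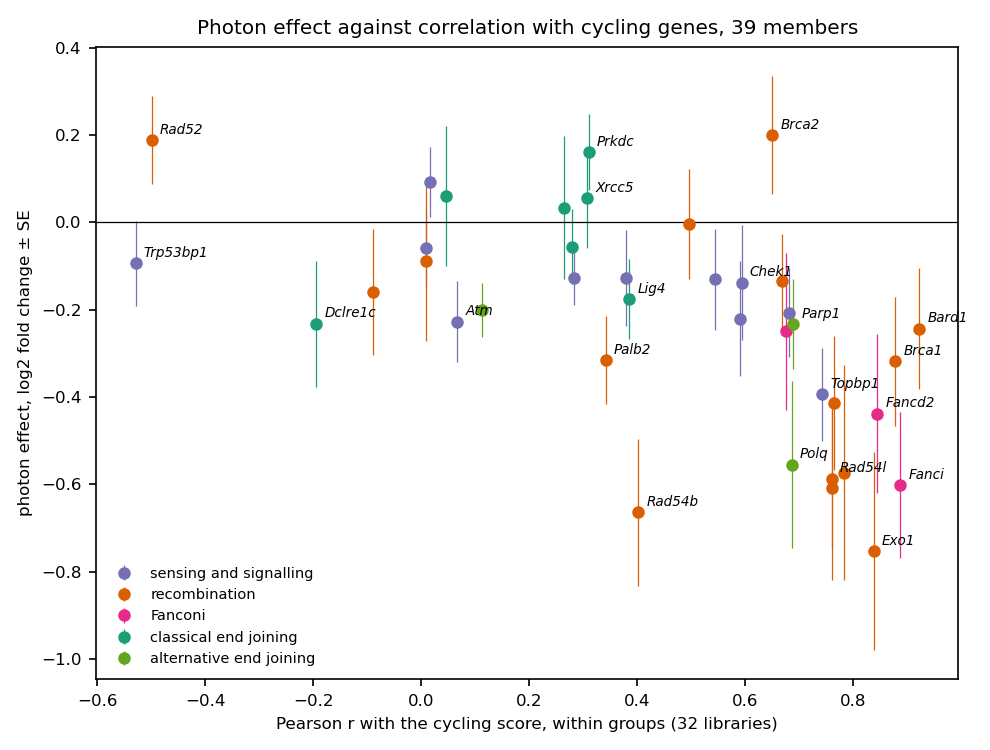
Photon log2 fold change with its standard error (vertical) against Pearson's r with the cycling score within groups over 32 libraries (horizontal) for the 39 genes, coloured by role. Genes with r over 0.7 all lie below 0, whereas Brca2 is above 0 at an r of 0.65; the r values and the effects share the 16 photon-arm libraries.

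Markers of other cell types were also tested after photons, where 3.81% of all genes passed. The genes that passed were 0 of 8 skeletal muscle, 2 of 8 macrophage, 2 of 8 fibroblast, 2 of 6 endothelial and 3 of 5 neutrophil genes, all lower, and of 7 T cell genes 1 lower and 1 higher. None of 8 epithelial genes passed. Summed over 8 genes, skeletal muscle markers had a median of 695 CPM (range 3.74 to 1430) in the photon controls and 8.99 CPM (1.42 to 369) after photons. Macrophage markers had medians of 732 and 487 CPM, fibroblast markers 15783 and 11520 CPM, endothelial markers 220 and 157 CPM, neutrophil markers 43.2 and 23.1 CPM, and T cell markers 10.6 and 6.17 CPM. Epithelial markers had medians of 3436 and 3396 CPM. With the muscle score as a covariate no member passed, where 0.523% of all genes fell. Rad54b was then at -0.59 ± 0.19, Fanci at -0.52 ± 0.19, Rad54l at -0.42 ± 0.17 and Topbp1 at -0.39 ± 0.12 (edgeR adjusted p from 0.104 to 0.215). With the epithelial score 3 passed, Rad54l, Rad54b and Fanci, where 1.55% of all genes fell. The part of the immune, endothelial and fibroblast markers was not tested.

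Carbon ions were compared with the carbon-arm controls in the same way. No member passed, as 0% of the 20474 genes did in the edgeR test. At an unadjusted p under 0.05, 3 members were lower and 1 higher, where 5.75% of all genes changed in either direction. By DESeq2 no member passed either, where 0.0983% of all genes did. Below 0 were 31 of 39 estimates, against 48.5% of all genes, with a median of -0.08. By role, 8 of 11 signalling, 12 of 15 recombination, all 3 Fanconi and 8 of 10 end-joining genes were below 0, with medians of -0.04, -0.14, -0.19 and -0.04.

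Brca2 had the smallest p among the members after carbon ions. It measured 26.3, 35.03 and 42.03 CPM in the carbon-arm controls and 18.99, 26.5 and 30.4 CPM after carbon ions. All 8 irradiated libraries were below the control median, with some overlap. The estimate was -0.41 ± 0.14 on the log2 scale, 24.6% lower, with an unadjusted p of 0.00518 and an adjusted p of 0.521 in the edgeR test. In D-titled libraries alone (4 controls and 3 irradiated) it was -0.29 ± 0.15 and in M-titled ones (4 and 5) -0.45 ± 0.14. Xrcc2, a paralog in the recombinase family, had an estimate of -0.28 ± 0.13 and Rad51b one of 0.38 ± 0.18, both short of the threshold (edgeR adjusted p = 0.79 and 0.859).

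The other genes did not pass after carbon ions. Topbp1 measured 73.7, 85.2 and 107 CPM in the controls and 63.2, 71.5 and 98.5 CPM after carbon ions, with 6 of 8 irradiated libraries below the control median. Its estimate was -0.22 ± 0.11 (edgeR adjusted p = 0.864). Fancd2 measured 11.5, 14.9 and 18.4 CPM against 9.43, 12.1 and 15.4 CPM, an estimate of -0.28 ± 0.18. Fanci, Rad54l and Rad54b had estimates of -0.12 ± 0.17, -0.23 ± 0.16 and -0.19 ± 0.17. Atm measured 51.2, 60.1 and 72.9 CPM in the controls and 45.5, 56.5 and 57.6 CPM after carbon ions, so that all 8 irradiated libraries lay below the control median. Its estimate was -0.17 ± 0.09.

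For Brca1 and Chek1 the carbon estimates were near 0. Brca1 measured 22.4, 28.1 and 33.5 CPM against 22.97, 25.9 and 31.0 CPM, an estimate of -0.06 ± 0.15. Chek1 measured 10.2, 13.0 and 16.3 CPM against 9.34, 13.5 and 15.6 CPM, an estimate of -0.04 ± 0.13. No end-joining gene passed after carbon ions. Prkdc measured 49.3, 54.7 and 56.9 CPM against 45.6, 51.9 and 62.6 CPM, with an estimate of -0.01 ± 0.09. Lig4 measured 11.6, 14.7 and 17.9 CPM against 12.3, 15.5 and 18.4 CPM, with an estimate of 0.08 ± 0.09. Parp1 measured 44.1, 56.1 and 69.2 CPM against 39.4, 52.3 and 61.4 CPM, and Polq 7.53, 9.32 and 12.8 against 5.23, 9.28 and 11.001 CPM. Their estimates were -0.17 ± 0.10 and -0.20 ± 0.19, and all of these intervals reach values of either sign within 2 standard errors.

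The p53 pathway, which is switched on through Atm and the Chek kinases, gives a reference for the damage response at the time of sampling. Cdkn1a, the p53 target that halts the cell cycle, measured 18.1, 29.9 and 58.5 CPM in the carbon-arm controls and 26.6, 83.2 and 129 CPM after carbon ions, and 18.5, 26.0 and 50.8 CPM in the photon controls and 25.1, 56.5 and 66.7 CPM after photons. In the mean of both effects Cdkn1a rose by 1.04 ± 0.21 on the log2 scale (edgeR adjusted p = 0.0121) and Mdm2, the ligase that degrades p53, by 0.19 ± 0.05 (edgeR adjusted p = 0.0378). Neither gene passed in a single arm.

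The mean of both effects, the average of the carbon and photon changes, called 1 break repair gene. Topbp1 fell by 0.31 ± 0.08 on the log2 scale (edgeR adjusted p = 0.0439), where 0.332% of all genes fell and 0.772% changed. Rad54l, at -0.41 ± 0.11, and Rad54b, at -0.43 ± 0.12, missed the threshold with edgeR adjusted p values of 0.0744 and 0.0747. Of the 39 estimates 33 were below 0, against 47.6% of all genes, and the median was -0.15. Dclre1c, the nuclease that opens hairpin ends, had the smallest p of the classical genes at -0.16, with 14.1 and 13.7 CPM as medians in the carbon arm and 16.1 and 14.3 CPM in the photon arm. Topbp1 passed in 1 of 8 alternative fits, that with DESeq2, and missed in the other 7, with an edgeR adjusted p of up to 0.259 and estimates from -0.31 to -0.17. Without the 2 libraries of lowest cycling score Topbp1 passed, at -0.30 (edgeR adjusted p = 0.0224), where 0.479% of all genes fell. When each of the 32 libraries was dropped in turn, Topbp1 passed in 10 fits, with estimates from -0.34 to -0.28. The count of members passing ranged from 0, as without carbon-arm control 1, to 4 without photon-arm control 2. It was 2 without carbon-irradiated library 8, photon-arm control 6 or photon-irradiated library 4. The share of all genes passing in these fits was not computed, so the counts cannot be read against it.

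Whether the beams differed was tested as the carbon effect less the photon effect. No member passed, where 0.0781% of all genes did. DESeq2 called no member either, where 1.39% of all genes passed. At an unadjusted p under 0.05 there were 2 members, where 13% of all genes passed. Brca2, with estimates of -0.41 after carbon ions and 0.20 after photons, had the smallest p: the difference was -0.61 ± 0.19, its 95% interval ran from -0.98 to -0.23, and the edgeR adjusted p was 0.17. With the cycling score as a covariate the Brca2 difference was -0.76 ± 0.16 and passed (edgeR adjusted p = 0.0486), the only one of the 8 alternatives run on all groups in which it did. Xrcc1 was the other gene, with a difference of 0.21 ± 0.09. For Fanci and Rad54b, called after photons alone, the differences were 0.48 ± 0.24 and 0.47 ± 0.24 with edgeR adjusted p values of 0.384 and 0.389, and for Topbp1 and Rad54l the difference did not pass. Rad50 and Lig4, the signalling and classical genes of smallest p, differed by 0.14 and 0.25.

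Gene by gene, 26 of the 39 members were below 0 after both beams, or 66.7%, against 23.5% of all genes. As 31 were below 0 after carbon ions and 32 after photons, a large overlap follows from these counts alone. The estimate was lower after photons than after carbon ions in 29 of 39, or 74.4%, against 52% of all genes. Across the 39 genes, which are not independent, Pearson's r between both effects was 0.34 and Spearman's rho 0.50, against 0.12 and -0.0016 over all genes tested. The beams have separate controls, so no library is shared by the 2 effects.

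The untreated controls of both arms were compared because any direct comparison of the beams rests on them. In this contrast 4 of 39 members differed, 1 higher and 3 lower in the carbon arm, where 9.14% of all genes did, 5.13% higher and 4.01% lower. Trp53bp1 measured 51.1, 56.3 and 61.4 CPM in the carbon-arm controls and 60.4, 75.9 and 91.1 CPM in the photon-arm controls. The groups barely overlap, and the log2 difference, carbon arm less photon arm, was -0.45 ± 0.10 (edgeR adjusted p = 0.00409). Brca2 was higher in the carbon-arm controls, by 0.50 ± 0.14 (edgeR adjusted p = 0.0187), with the values given above. Palb2 measured 5.31, 7.92 and 8.57 CPM in the carbon-arm and 8.26, 9.51 and 12.1 CPM in the photon-arm controls, a difference of -0.37 ± 0.10 (edgeR adjusted p = 0.0178). Xrcc1 measured 19.8, 22.2 and 24.6 CPM against 22.8, 25.3 and 29.1 CPM, a difference of -0.22 ± 0.06 (edgeR adjusted p = 0.0216).

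Of these genes, Trp53bp1 and Brca2 passed whichever of the 16 controls was dropped, Palb2 in 15 and Xrcc1 in 11. With the M-titled libraries alone, Trp53bp1 and Xrcc1 passed, where 4.6% of all genes did. With the epithelial score as a covariate none did, where 1.62% of all genes passed against 9.14% without it. Trp53bp1 was then at -0.33 and Brca2 at 0.47. Epithelial markers had a median of 4025 CPM in the carbon-arm and 3436 CPM in the photon-arm controls, and their part in the differences was not tested beyond that covariate. Xrcc3, a further recombinase paralog, measured 5.31, 7.46 and 8.96 CPM in the carbon-arm controls and 9.13, 9.71 and 10.8 CPM in the photon-arm controls, which do not overlap. Its difference of -0.39 ± 0.14 had an edgeR adjusted p of 0.0853. Nhej1, a classical end-joining factor, was at medians of 3.15 and 2.49 CPM, with an edgeR adjusted p of 0.0854. On GENCODE vM21, 15% of the exonic bases of Trp53bp1 are shared with Tubgcp4 on the opposite strand, and Tubgcp4 had a difference of -0.18 ± 0.09 that did not pass. Palb2 shares 5.6% of its exonic bases with the pseudogene Gm16326 on the opposite strand.

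The photon effect and this comparison share the photon-arm controls. Side by side, Palb2 was at -0.31 after photons and at -0.37 in carbon-arm against photon-arm controls, Xrcc1 at -0.20 and -0.22, Topbp1 at -0.39 and -0.29, and Rad54b at -0.66 and -0.10. For Trp53bp1 the photon effect was -0.09 ± 0.10 and the carbon effect 0.08 ± 0.10, so the arms differed more than either treatment changed the estimate. Brca2 shares the carbon-arm controls with the carbon effect: it was at -0.41 after carbon ions, while its level in the carbon-irradiated tumours, with a median of 26.5 CPM, lay between those of the photon-arm groups, 23.9 and 27.6 CPM.

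Between the irradiated groups no member differed, where 5.08% of all genes did. Trp53bp1 had the smallest p, with 50.6, 57.3 and 82.6 CPM after carbon ions and 56.9, 71.9 and 87.2 CPM after photons, a difference of -0.28 ± 0.10 (edgeR adjusted p = 0.0785). It passed in 3 of 16 fits with 1 library left out: without carbon-irradiated library 3, its highest, where the difference was -0.35, and without photon-irradiated library 2 or 4. Atr passed without carbon-irradiated library 1. At an unadjusted p under 0.05 there were 8 members, where 25.2% of all genes passed. Rbbp8, Chek2, Nhej1, Rnf168 and Rad54b were higher after carbon ions and Trp53bp1, Xrcc3 and Atr lower.

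The other genes of break repair, signalling and crosslink repair were taken from 4 further lists that hold no member. Of 78 tested, 4 fell after photons and none rose, where 2.1% of all genes fell, and all 4 belong to signalling and checkpoint control. H2ax, the histone marked at break sites, measured 38.5, 91.0 and 131 CPM in the photon controls and 27.5, 52.7 and 77.7 CPM after photons, a drop of 0.73 ± 0.21 on the log2 scale (edgeR adjusted p = 0.0434). Tipin, which stabilises replication forks, measured 11.1, 17.4 and 24.2 CPM against 7.30, 10.1 and 14.2 CPM, with a log2 fold change of -0.69 ± 0.17 (edgeR adjusted p = 0.0253). Rad9a, part of the clamp that Topbp1 binds, and Cdc25a, the phosphatase that Chek kinases mark for degradation, changed by -0.28 ± 0.08 and -0.31 ± 0.09. None of the 26 other recombination, 13 other Fanconi and 17 other end-joining genes passed, with medians of -0.16, -0.14 and -0.05. After carbon ions 0 of the 78 passed. Between the controls of both arms 7 of 78 differed, or 8.97%, against 9.14% of all genes, with Brcc3, Paxip1 and Recql higher and Wdr48, Cdc25a, Polm and Atrip lower in the carbon arm. Between the irradiated groups, Herc2 was lower and Rpa3 higher after carbon ions, 2.56% of the 78 against 5.08% of all genes.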

How the data were processed

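Stranded mRNA libraries were made from tumour tissue, per the labels' protocols. The deposited table, named raw counts by the authors, holds estimated counts per gene: 4 of 853648 values above 0 are whole within 1e-06. The submitters' processing notes name FastQC 0.12.0, Trimmomatic 0.32, RSEM 1.3.3 and mm10, with no role or order; annotation and strand setting are not given in the sources used here. Values were rounded (totals moved by at most 0.00403%), filtered (filterByExpr, minimum count 10), scaled by TMM and fitted in edgeR 4.0.16 (R 4.3.3) as 1 quasi-likelihood model of 32 libraries in 4 groups with 6 contrasts, with Benjamini-Hochberg adjustment over 20474 genes and a threshold of 0.05. Standard errors come from the F statistic. CPM uses TMM-scaled totals; log2 CPM has a prior count of 2. The script was tested on simulated data. DESeq2 1.42.0 was an alternative. Replicate numbers follow the deposition order. Exons come from GENCODE vM21.

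The genes and lists were chosen with earlier results of these data known. Full values are given for members called in any contrast, the member of smallest p per role and contrast, and Brca1, Brca2, Atm, Chek1, Prkdc, Lig4, Polq and Parp1; other pathway genes are named if called, at most 6 per contrast by p, with 1 more where a full set is given.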

Additional observations from a re-analysis of the deposited data

Results flagged for a closer look

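Each member was checked in each group of 8 for a library whose gap to its nearest neighbour, as a share of the group's range on the log2 CPM scale, exceeded the 95% critical value of Dixon's test. Of 156 such checks 6 exceeded it, and chance gives about 1 in 20. In carbon-irradiated library 3, Trp53bp1 was at 82.6 CPM where the next highest library had 61.3 CPM, a gap of 0.609 of the log2 range. In carbon-arm control 2, both Palb2 and Xrcc3 were lowest in their group at 5.31 CPM, with next values of 7.22 and 7.09 CPM and gaps of 0.64 and 0.552. In carbon-arm control 7, Rnf8 was highest, at 24.4 against 19.9 CPM (0.559), and Bard1 lowest, at 21.1 against 26.0 CPM (0.603). In photon-irradiated library 1, which also had the lowest cycling score, Xrcc6 was highest, at 26.4 against 22.5 CPM (0.591). On the CPM scale the gap of Xrcc3 was 0.487 of the range and below the critical value, while the other 5 exceeded it, and so did Chek2 in carbon-irradiated library 2, Nhej1 in carbon-arm control 2 and Polq in carbon-arm control 4.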

How the results depend on the processing

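No paired analysis was possible because the labels give no replicate numbers. The number of members called after photons, 4 where 3.81% of all genes passed, was 7 with DESeq2 (7.74% of all genes). It was 2 with M-titled libraries only (3.14%) and 1 without a filter on low counts (1.12%). It was 0 with only the groups of the contrast (4.41%), and with the cycling (0.899%) or muscle score (0.992%) as covariate. With 1 library left out it ran from 0, as without photon-arm control 5 (1.97%), to 10 without photon-arm control 2 (8.05%). The single call in the mean of both effects (0.772% of all genes) became 3 with DESeq2 (2.29%). It became 0 with upper-quartile scaling (0.879%), no filter (0.295%), M-titled libraries (0.0426%) or the title letter as covariate (0.479%). It was also 0 with the cycling (0.303%), epithelial (0.43%) or muscle score (0.322%) as covariate. It stayed at 1 without the 2 libraries of lowest cycling score (1.16%), and ran from 0 to 4 with 1 library left out. The 4 calls between controls (9.14% of all genes) became 2 with M-titled libraries (4.6%) or the title letter as covariate (5.28%). They became 0 with the epithelial score (1.62%). Without the 2 libraries of lowest cycling score there were 4 (8.86%), with Topbp1 (edgeR adjusted p = 0.0307) in place of Xrcc1 (0.0592). With 1 library left out the count ran from 3 to 5. The difference of the effects went from 0 (0.0781% of all genes) to 1 member, Brca2, with the cycling score (0.107%). Between irradiated groups (5.08% of all genes in the main fit) the count ran from 0 to 1 with 1 library left out. Outside the photon effect, the share of all genes in fits with 1 library left out was not computed. The carbon effect called 0 members under every alternative run, where 0.0983% of all genes passed with DESeq2. The subset shifts ran from -0.0886 to -0.033 (carbon ions) and from -0.228 to -0.13 (photons) with 1 library left out. The cause of these changes was not tested.

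Some estimates changed sign, including that of Brca1 after photons, which was -0.32 without a covariate. With the cycling score, Brca1 was at 0.0672 after carbon ions, 0.0492 after photons and 0.0582 in the mean. Chek1 was then at 0.0205, 0.0678 and 0.0442, Prkdc at 0.0162 after carbon ions (0.00453 with DESeq2), and Brca2 at 0.0598 and Lig4 at 0.00563 in the mean. Lig4 was at 0.0377 in the mean with M-titled libraries only. Between irradiated groups Fanci was at -0.0128 and Polq at -0.063 with the cycling score, and Polq at -0.0305 with the muscle score. With 1 library left out, the carbon effect ran from -0.0911 to 0.0135 for Chek1 and from -0.0396 to 0.0186 for Prkdc. The muscle covariate, the D-titled fit and the fit without the 2 libraries of lowest cycling score were chosen after seeing the data. Members of few reads, such as Rad51c at about 1 CPM, have wide errors.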
